A study of Mus musculus with 96 samples.

Results

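The miR-7 family was followed in 4 cell types of the mouse heart before and after acute myocardial infarction (AMI), namely cardiomyocytes (CMs), endothelial cells (ECs), hematopoietic cells (HCs) and fibroblasts (FBs). Its members here are mmu-miR-7a-5p, mmu-miR-7b-5p and mmu-miR-7a-1-3p, taken by name from the tables of mature miRNAs. They are 3 of 1978 listed mature sequences, of which 1561 had a count in some library. The family was chosen by measured values of these data, since miR-7b-5p in FBs and miR-7a-5p in HCs had been among the largest rises at day 3 after AMI (D3) against D0. The D3 against D0 values of FBs and HCs are therefore given as a description, without a test. The D0 libraries of FBs and HCs entered that choice too. Tests that use them, such as other days against D0, are therefore not independent of the choice.

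Small RNA was sequenced in 96 libraries, with 4 libraries of each cell type at D0, D1, D3, D7, D14 and D28. The mice were male C57Bl/6J of 12 to 14 weeks. D0 mice were not operated on, and all other mice had a permanent ligation of the left anterior descending coronary artery, so surgery and infarction were not separated by a sham group. A library held the pooled RNA of 3 mice, and of 2 in the case of a missing sample. At one time point the pools of all 4 cell types came from the same animals. CMs were enriched by centrifugation, HCs with anti-CD45 beads, ECs with anti-CD144 beads and FBs by 40 min of adhesion to plastic. Total RNA input and PCR cycles were 500 ng and 14 cycles for CMs, 50 ng and 16 cycles for ECs, and 150 ng and 15 cycles for FBs and HCs. Cell type could therefore not be told apart from library preparation, except from input and cycles between FBs and HCs.

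A miRNA binds target transcripts mainly through its seed, bases 2 to 8 from its 5′ end, and lowers their stability and translation. The miR-7 family is deeply conserved and is best known from neurons and endocrine cells. Its 5p arm is bound by the circular RNA Cdr1as, which carries many miR-7 sites, and miR-671-5p directs the cleavage of Cdr1as. In the mouse, miR-7a-5p is made from the hairpins of Mir7-1 and Mir7-2, and miR-7b-5p from the hairpin of Mir7b.

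The mature sequences of the 3 members follow, as RefSeq gives them on GRCm38.p6, because the comparison of the members turns on how little the 5p arms differ. Capitals mark the seed and, in the 5p arms, base 10.
mmu-miR-7a-5p: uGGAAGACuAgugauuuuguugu
mmu-miR-7b-5p: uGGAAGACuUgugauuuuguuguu
mmu-miR-7a-1-3p: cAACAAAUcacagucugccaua
miR-7a-5p has 23 bases and miR-7b-5p has 24. Counted from the 5′ end of miR-7a-5p, they differ by the 1 substitution A10U, which lies outside the seed. Among 1679 listed miRNAs with a sequence, only these 2 carried this seed, and only miR-7a-1-3p carried the other one. In both Mir7-1 and Mir7-2 the base after miR-7a-5p is U. A read of miR-7a-5p that is longer by this base therefore differs from miR-7b-5p at 1 base only.

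The 3 hairpins are shown with both arms in capitals, because the loci differ in their loops and flanks more than in their 5p arms.
Mir7-1: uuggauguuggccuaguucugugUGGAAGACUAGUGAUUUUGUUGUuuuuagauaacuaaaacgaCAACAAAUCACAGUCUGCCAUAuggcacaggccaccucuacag
Mir7-2: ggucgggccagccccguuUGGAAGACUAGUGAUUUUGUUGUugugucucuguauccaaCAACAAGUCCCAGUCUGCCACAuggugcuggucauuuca
Mir7b: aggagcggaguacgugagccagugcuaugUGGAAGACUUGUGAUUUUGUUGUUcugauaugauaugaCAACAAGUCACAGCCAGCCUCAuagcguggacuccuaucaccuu
Mir7-1 lies at chr13:58392779-58392886 on the minus strand of GRCm38, in an intron of the protein-coding gene Hnrnpk on the same strand. Mir7-2 lies at chr7:78888277-78888373 and Mir7b at chr17:56242988-56243098, both on the plus strand and with no other annotated gene over them. The 3p arm of Mir7-1 differs from that of Mir7-2 by 3 substitutions and from that of Mir7b by 5. Counts of miR-7a-1-3p therefore speak for the Mir7-1 locus, while counts of miR-7a-5p cannot be split between Mir7-1 and Mir7-2.

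Counts assigned to miR-7b-5p could not be told apart from reads of miR-7a-5p. In every one of the 96 libraries miR-7b-5p had 82.6% to 96.9% of the count of miR-7a-5p, with a median of 91.6%. The library with the fewest counts had 32 for miR-7a-5p and 30 for miR-7b-5p, and the library with the most had 218531 and 203582. The hairpin tables, which hold reads that matched no mature sequence, gave another picture. There the mir-7b hairpin summed to 3933 counts over all libraries and the mir-7a-1 hairpin to 491184, a share of 0.801%, and mir-7b was at 0 in 17 libraries. The mir-7a-1 and mir-7a-2 hairpins were nearly equal, with mir-7a-2 at 90.7% to 105% of mir-7a-1. Hairpin counts exceed the reads behind them 1.17 to 2.40 times, and reads counted on both hairpins could not be told apart. The near-equality therefore does not measure the output of either locus. Over all libraries the 3p arms had 11065 counts for miR-7a-1-3p and 8 for miR-7a-2-3p.

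Over 18 pairs of mature miRNAs that differ by 1 base, the SD of the log2 ratio of their counts across the 96 libraries ranged from 0.05 to 0.53. The pair of miR-7a-5p and miR-7b-5p had the lowest SD, and the next pair had 0.08. Some other pairs had near-equal totals, such as miR-27a-3p and miR-27b-3p with 28359710 and 29036606 counts, but their ratio varied more between libraries, with an SD of 0.22. How the counting treated reads that match both 5p arms was not tested. Values of miR-7b-5p are given below as deposited and do not count as a measurement beside those of miR-7a-5p, so each share of all miRNAs below is set beside miR-7a-5p or miR-7a-1-3p alone.

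**Figure D1:**
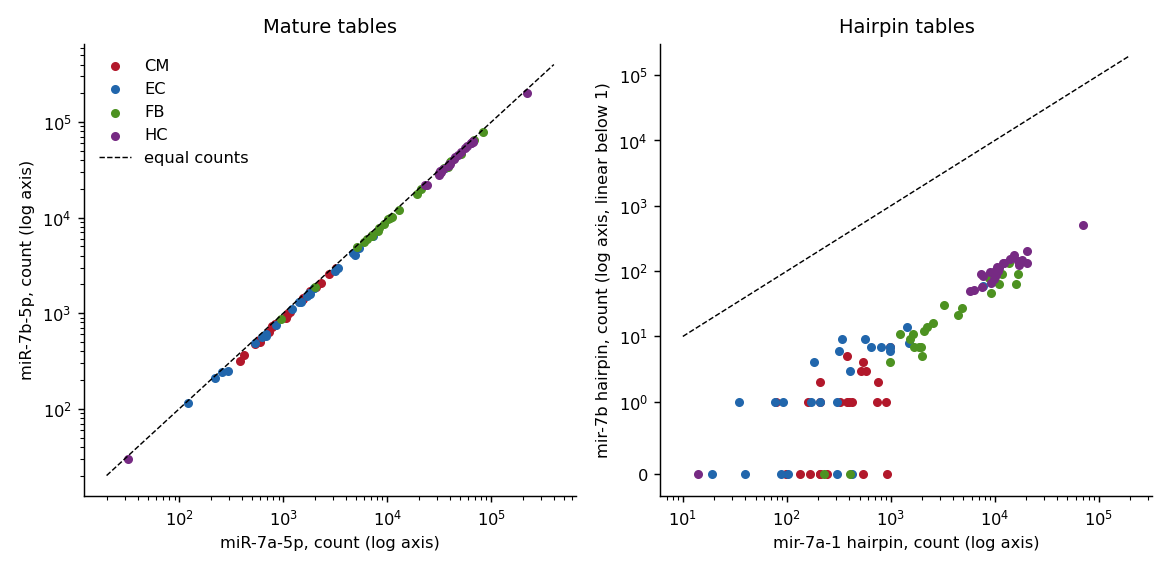
Counts of miR-7b-5p against miR-7a-5p in the mature tables (left) and of the mir-7b against the mir-7a-1 hairpin in the hairpin tables (right), 1 point per library and 96 in each panel, on log axes (the right vertical axis is linear below 1), with a dashed line at equal counts. The mature points lie just under the dashed line, at 82.6% to 96.9%, while the hairpin points lie far below it and 17 of them at 0.

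At D0 the log2 ratio of miR-7b-5p to miR-7a-5p was -0.09 ± 0.01 in HCs, -0.14 ± 0.03 in FBs, -0.16 ± 0.07 in CMs and -0.17 ± 0.04 in ECs (SD, n = 4 each). The HC libraries did not overlap those of the other cell types. None of the 6 pairs of cell types passed the two-sided exact permutation test after adjustment over 12 comparisons, with a lowest adjusted p of 0.0686. With 4 libraries against 4, the smallest unadjusted p of this test is 0.0286. The other arms of the family were hardly present, with at most 2 counts of miR-7a-2-3p in a library and 8 over all, and 0 of miR-7b-3p in all 96 libraries. Neither of these arms passed the filter on low counts, and the 3 members passed it in every fit.

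The total count on mature miRNAs ranged from 18286 to 65588543 per library, with a median of 12289039. The shallowest library was HC D0 replicate 3, where 3 counts amount to 164 CPM, the count scaled to a common total on mature miRNAs. There miR-7a-1-3p had 0 counts, which at this depth allows a level of up to 164 CPM. The 4 sets of cell type markers were each highest in their own cells. The 4 CM markers summed to 311247 to 709040 CPM in CMs, and they were also present in ECs with 20924 to 162111 CPM and in HCs with 25975 to 132287 CPM. The 4 HC markers summed to 6819 to 25731 CPM in HCs. In ECs, CMs and FBs most of that sum was miR-150-5p, a miRNA of lymphocytes, at 98.9% to 99.4% of it in ECs from D0 to D7. The myeloid miRNA miR-223-3p was at 675 to 1148 CPM in HCs at D0 and at 0.475 to 1.17 CPM in ECs, 0.171 to 1.35 CPM in FBs and 0 to 0.190 CPM in CMs. In bulk libraries, fewer cells of a type and less RNA per cell cannot be told apart.

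HCs had the highest level of miR-7a-5p of the 4 cell types on every day. In HCs it stood at 1708, 1198, 1750 and 1745 CPM at D0, and FBs followed with 428, 430, 635 and 500 CPM. ECs had 265, 249, 262 and 256 CPM and CMs had 56.5, 54.9, 36.6 and 63.8 CPM. On the CPM scale no 2 neighbours in the order HC, FB, EC, CM overlapped at D0, D1 or D3, while FBs and ECs overlapped at D7, D14 and D28. By mean CPM miR-7a-5p ranked 63rd of the mature miRNAs with a count in HCs at D0 and 23rd at D3, and its rank in CMs lay between 95 and 127.

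**Figure D2:**
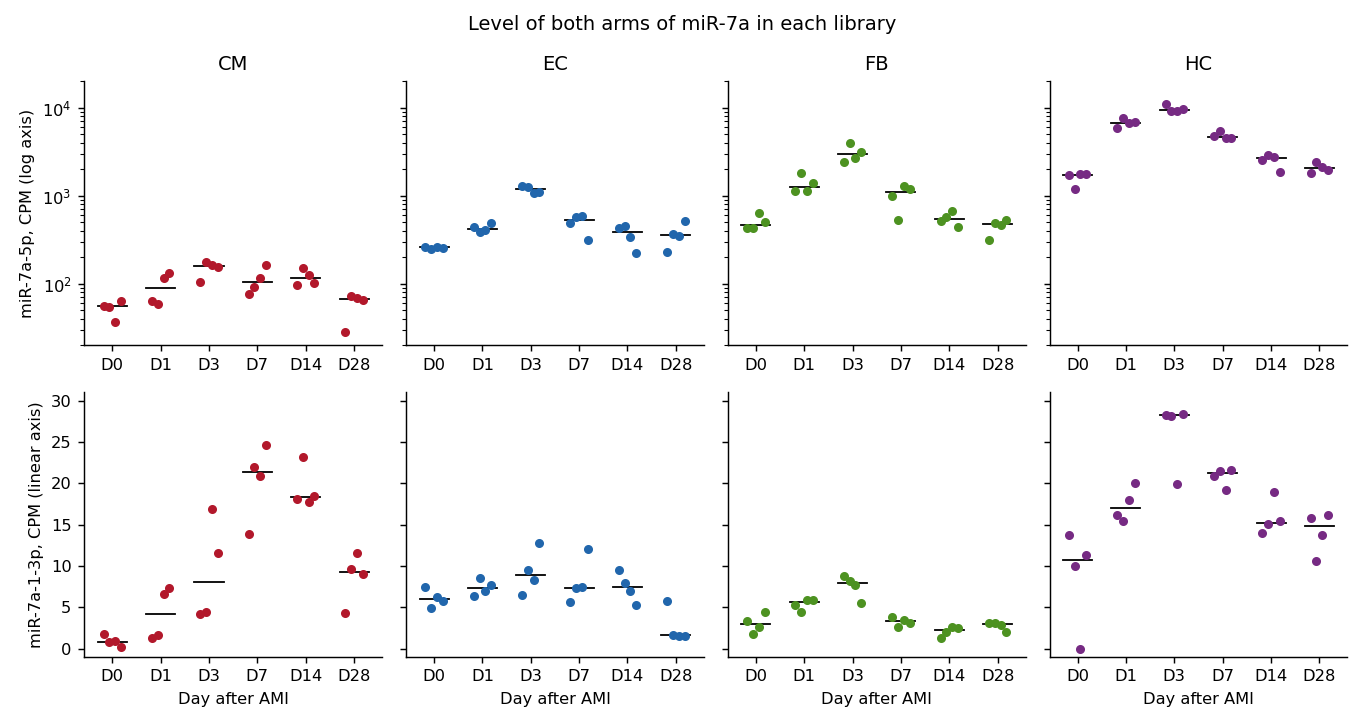
CPM of miR-7a-5p (upper row, log axis) and of miR-7a-1-3p (lower row, linear axis) by day after AMI in CMs, ECs, FBs and HCs, 1 point per library, with a line at the median of 4. miR-7a-5p is highest at D3 in each cell type on this scale, in HCs at 9074 to 10904 CPM. In CMs the points at D3, D7 and D14 lie above all D0 points on the CPM scale and D28 replicate 1 lies below them at 28.4 CPM, while with edgeR's TMM factors D7, D14 and D28 lie below D0.

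The levels at D0 were compared with edgeR's quasi-likelihood test over all 96 libraries, with TMM factors, which scale libraries so that most miRNAs keep their level, and with Benjamini-Hochberg adjustment over 712 miRNAs. In ECs against HCs the log2 difference of miR-7a-5p was -1.91 ± 0.27 (SE, adjusted p = 6.89e-09), so that HCs held 3.76 times as much. In FBs against HCs the log2 difference was -1.23 ± 0.26 (adjusted p = 3.64e-05). Of all miRNAs tested, 18.4% were lower in ECs than in HCs and 28.2% were lower in FBs than in HCs. The log2 difference of miR-7a-5p between ECs and FBs was -0.68 ± 0.26 (adjusted p = 0.022). This call was lost without EC D0 replicate 1 (adjusted p = 0.053) and with no filter on low counts (adjusted p = 0.054). miR-7a-1-3p was higher in ECs than in FBs, and of all miRNAs 25.4% were lower and 27.9% higher in ECs.

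For CMs the order at D0 depended on the scaling. The median log2 difference of all miRNAs between CMs and the other cell types lay between -0.73 and -0.55 with TMM factors and between -3.57 and -2.97 with library size as the only scaling. With TMM factors the log2 difference of miR-7a-5p in CMs against HCs was -1.48 ± 0.27 (adjusted p = 1.16e-06), where 31.6% of all miRNAs were lower. Its log2 difference from ECs was 0.43 ± 0.26 with TMM factors (adjusted p = 0.158), where 54.5% of all miRNAs were called in either direction, and -2.29 with library size only (adjusted p = 4.28e-13), which turned the direction. Relative to the median of all miRNAs it was 1.01 and 0.68 on the respective scales. The log2 difference from FBs was -0.25 ± 0.26 (adjusted p = 0.419), and -3.23 with library size only (adjusted p = 2.31e-19), or 0.30 and -0.09 relative to the median.

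In HCs, miR-7a-5p rose early after AMI and fell again between D7 and D28. The libraries held 5927, 7540, 6647 and 6833 CPM at D1, above all D0 libraries. At D3 they held 10904, 9075, 9074 and 9705 CPM, and at D7 they held 4784, 5351, 4497 and 4485 CPM. D1, D3 and D7 each stood apart from D0 and from one another. Libraries at D14 held 2561, 2914, 2769 and 1842 CPM, and at D28 1797, 2383, 2103 and 1966 CPM, above all D0 libraries. With TMM factors, however, the D14 and D28 libraries overlapped those at D0.

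The rise of miR-7a-5p in HCs was 3.31-fold at D1 (log2 1.73 ± 0.15, adjusted p = 1.44e-09) and 2.38-fold at D7 (log2 1.25 ± 0.15, adjusted p = 1.86e-07). At D3 the log2 fold change was 2.16 ± 0.15, given as a description, where 30.9% of all miRNAs were called higher. Without the shallow HC D0 replicate 3, the log2 fold changes at D1 and D7 were 1.68 (adjusted p = 8.70e-09) and 1.20 (adjusted p = 6.36e-07). Of 608 miRNAs, 25.3% rose at D1 and 29.9% at D7. At D14 the log2 fold change was 0.40 ± 0.15 (adjusted p = 0.047). That call was lost in 6 of the 8 fits that left out 1 library, namely HC D0 replicates 1, 2 or 3 or HC D14 replicates 1, 2 or 3, with adjusted p of up to 0.179. It was also lost with the replicate number as a block (adjusted p = 0.069), and miR-7b-5p did not pass (adjusted p = 0.066), where 15.3% of all miRNAs rose. At D28 miR-7a-5p stood at a log2 fold change of 0.14 ± 0.15 (adjusted p = 0.51) and did not pass, where 24% of all miRNAs were called.

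All changes against D0 share the same 4 control libraries, which in HCs and FBs also entered the choice of the family. The contrast of D28 against D7 in HCs uses neither D0 nor D3. Its scaling, filter and estimate of the spread, however, came from all 24 HC libraries. There miR-7a-5p changed by -1.10 ± 0.15 log2 units (adjusted p = 2.82e-06), with no overlap between the days, where 19.9% of all miRNAs fell. Across these days the HC libraries also changed in other ways. The HC markers summed to 6819 to 10015 CPM at D0 and to 14671 to 25044 CPM at D3, with miR-223-3p at 675 to 1148 CPM and 2065 to 3459 CPM, while the CM markers summed to 85776 to 132287 CPM and 38493 to 64736 CPM, and the EC markers to 54905 to 91837 CPM and 14781 to 21541 CPM. With TMM factors, 3 of the 4 HC markers were called higher in HCs at D3 and 1 lower. miR-150-5p in HCs was at 2242 to 4024 CPM at D0 and at 1198 to 3049 CPM at D3. The part of all these markers in the course of miR-7a-5p was not tested.

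The other strand of the Mir7-1 precursor passed at no tested day in HCs with TMM factors. miR-7a-1-3p had 13.7, 10.0, 0 and 11.4 CPM at D0, and 16.1, 15.4, 17.9 and 20.1 CPM at D1. At D3 it had 28.3, 28.2, 19.9 and 28.4 CPM, and at D7 20.9, 21.5, 19.2 and 21.6 CPM. These later libraries were above all D0 libraries in CPM, but with TMM factors they overlapped them. At D3 and D7 that overlap came from HC D0 replicate 3 alone, whose value with 0 counts is set by the pseudocount. Without it, log2 CPM with TMM factors was 3.71 to 4.08 at D0, 4.31 to 4.64 at D3 and 4.20 to 4.45 at D7, with no overlap, while D1 still overlapped D0. Its log2 fold change was 0.14 ± 0.19 at D1 (adjusted p = 0.547) and 0.42 ± 0.19 at D7 (adjusted p = 0.061). With library size only it passed at both days, at 0.58 (adjusted p = 0.011) and 0.84 (adjusted p = 4.56e-04), and at D7 it also passed with DESeq2 (adjusted p = 0.027) and without HC D7 replicate 3 (adjusted p = 0.015). From D7 to D28 its log2 fold change was -0.44 ± 0.17 (adjusted p = 0.0528). This passed without HC D28 replicate 1 (adjusted p = 0.043) or HC D28 replicate 4 (adjusted p = 0.037).

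FBs followed a like course at a lower level. miR-7a-5p had 1135, 1831, 1133 and 1376 CPM at D1 and 2399, 3944, 2702 and 3168 CPM at D3, both above all D0 libraries. At D7 it had 994, 525, 1279 and 1191 CPM, where replicate 2 lay within the D0 range. At D14 and D28 the libraries held 438 to 661 and 315 to 523 CPM, which overlapped D0. The rise at D1 was 2.40-fold (log2 1.26 ± 0.23, adjusted p = 6.15e-04), at a day when 5.86% of 563 miRNAs rose. The log2 fold change at D3 was 2.29 ± 0.24 for miR-7a-5p and 2.34 ± 0.24 for miR-7b-5p, again as a description, where 22.9% of all miRNAs were called higher.

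At D7 miR-7a-5p in FBs was still higher than at D0 by 0.76 ± 0.23 log2 units (adjusted p = 0.0088), where 24.5% of all miRNAs rose. From D7 to D28 it changed by -0.81 ± 0.23 log2 units (adjusted p = 0.0065), where 21.7% of all miRNAs fell. At D14 and D28 its log2 fold changes from D0 were 0.10 ± 0.23 and -0.05 ± 0.23, and no member passed where 24.7% and 6.75% of all miRNAs were called. miR-7a-1-3p had only 1.31 to 8.79 CPM in FBs, or 4 to 237 counts, and none of its tested changes passed. At D1 its log2 fold change was 0.57 ± 0.24 (adjusted p = 0.135), and with library size only 0.75 (adjusted p = 0.039). The HC markers in FBs summed to 222 to 236 CPM at D0, 241 to 371 CPM at D1 and 177 to 333 CPM at D3, and none of the 4 passed the test at D1 or D3. miR-223-3p was at 0.171 to 1.35 CPM at D0, 0.910 to 6.15 CPM at D1 and 0.692 to 1.98 CPM at D3.

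In ECs miR-7a-5p rose at D3. The EC libraries did not enter the choice of the family. Their pools, however, came from the same animals as the FB and HC pools behind that choice. The contrast in ECs is therefore not fully independent of it. The 4 libraries held 1303, 1248, 1068 and 1114 CPM at D3, against 249 to 265 CPM at D0. This was a 4.52-fold rise (log2 2.18 ± 0.30, adjusted p = 3.87e-06), where 15.4% of 421 miRNAs rose. At D1 the libraries held 389 to 494 CPM and did not overlap D0, but the log2 fold change of 0.73 ± 0.29 did not pass (adjusted p = 0.59). In that comparison edgeR called 0% of 421 miRNAs, 17 had an unadjusted p under 0.05, and DESeq2 called 5.

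After D3, miR-7a-5p in ECs stood at 486, 571, 591 and 312 CPM at D7, 434, 453, 344 and 224 CPM at D14 and 230, 371, 351 and 511 CPM at D28. The spread between libraries was wide, and none of these days passed against D0, with log2 fold changes of 0.56 ± 0.29 (adjusted p = 0.185), 0.30 ± 0.29 (adjusted p = 0.523) and 0.63 ± 0.29 (adjusted p = 0.074). No member passed at D7 and D14, where 22.6% and 14.5% of all miRNAs were called. D7 passed without EC D7 replicate 4 (adjusted p = 0.034). D28 passed without EC D28 replicate 1 (adjusted p = 0.028) or EC D28 replicate 3 (adjusted p = 0.038). The HC markers in ECs summed to 2221 to 2597 CPM at D0 and to 1914 to 2575 CPM at D3, nearly all of it miR-150-5p. The 1 of the 4 that rose was miR-223-3p, from 0.475 to 1.17 CPM at D0 to 1.18 to 5.54 CPM at D3, where HCs held 2065 to 3459 CPM. The FB markers in ECs went from 2016 to 2845 CPM to 3670 to 5684 CPM, and 1 of the 3 rose. FB markers in FBs summed to 40646 CPM or more, and the part of FBs in the EC values was not tested.

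**Figure D3:**
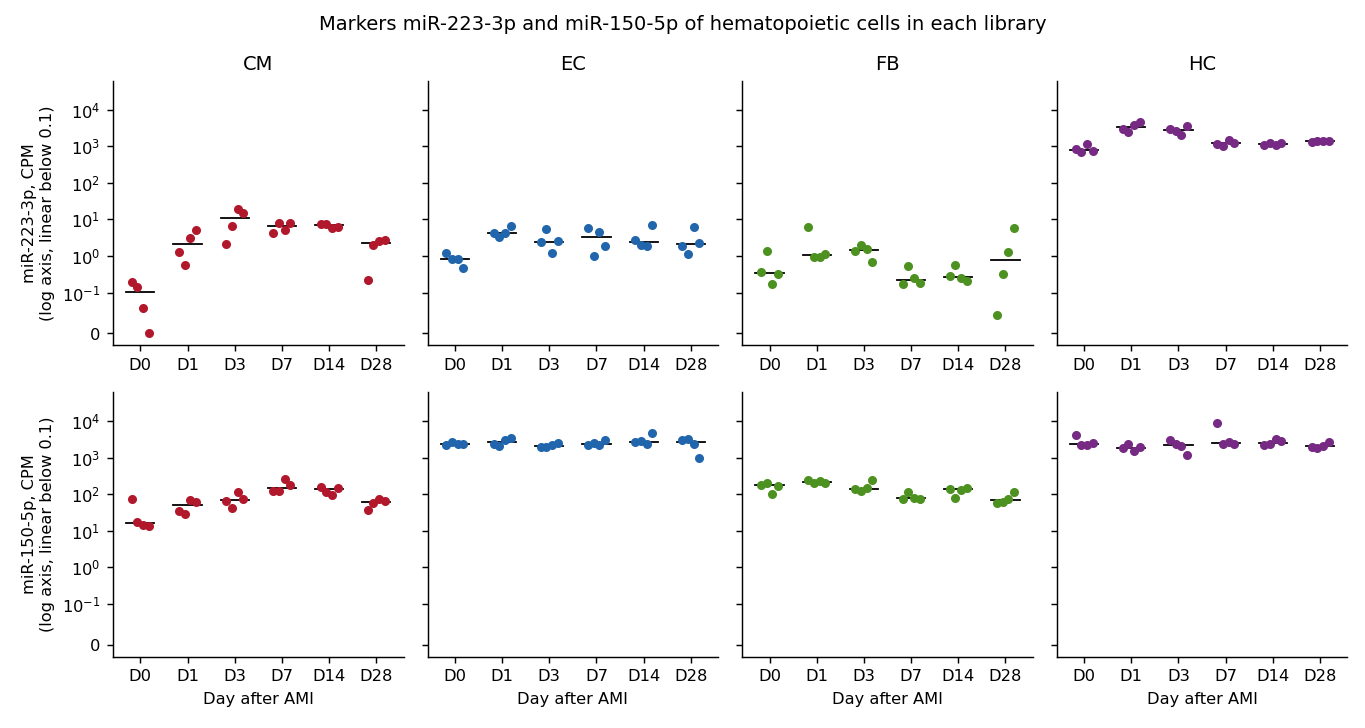
CPM of the HC markers miR-223-3p (upper row) and miR-150-5p (lower row) by day after AMI in CMs, ECs, FBs and HCs, on log axes that are linear below 0.1, 1 point per library, with a line at the median of 4. In ECs miR-223-3p at D3 lies at 1.18 to 5.54 CPM, against 2065 to 3459 CPM in HCs, while miR-150-5p in ECs is near its level in HCs.

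In ECs the level of miR-7a-1-3p was low in 3 of the 4 libraries of the last day. It had 7.42, 4.86, 6.21 and 5.70 CPM at D0 and 5.71, 1.64, 1.57 and 1.54 CPM at D28. Replicate 1 at D28 lay within the D0 range, and the others lay below it. These D28 values rest on 3, 3, 1 and 6 counts. The log2 fold change from D0 was -1.41 ± 0.44 (adjusted p = 0.0085), where 20.2% of all miRNAs fell. From D7 the log2 fold change was -1.42 ± 0.43 (adjusted p = 0.011), where 20.4% fell. Fitted on D7 and D28 alone, the latter did not pass (adjusted p = 0.138). The EC markers summed to 174749 to 215247 CPM at D0, to 224231 CPM in replicate 1 at D28 and to 103768, 156470 and 116455 CPM in the 3 others, below all D0 libraries. The part of this shift in the change of miR-7a-1-3p was not tested.

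In CMs the direction of miR-7a-5p depended on the scaling. In CPM it had 64.0, 58.6, 117 and 133 at D1, 104, 179, 164 and 156 at D3 and 77.3, 92.0, 117 and 162 at D7. At D14 it had 97.0, 151, 127 and 103 CPM and at D28 28.4, 73.2, 69.3 and 66.2 CPM. D3, D7 and D14 were above all D0 libraries in CPM. With TMM factors, D7, D14 and D28 were below all D0 libraries.

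The log2 fold change of miR-7a-5p in CMs was -1.22 ± 0.24 at D7 with TMM factors (adjusted p = 1.19e-04) and 1.08 with library size only (adjusted p = 0.0043). At D14 it was -1.43 ± 0.24 with TMM factors (adjusted p = 2.26e-05) and 1.17 with library size only (adjusted p = 0.0023). At D28 it was -1.66 ± 0.24 with TMM factors (adjusted p = 2.52e-05) and 0.16 with library size only (adjusted p = 0.652). D1 and D3 did not pass with TMM factors, at -0.46 ± 0.23 (adjusted p = 0.148) and -0.42 ± 0.23 (adjusted p = 0.124), and stood at 0.81 and 1.51 with library size only. D3 passed with TMM factors without CM D0 replicate 3 (adjusted p = 0.0489) or CM D3 replicate 2 (adjusted p = 0.043). On the TMM scale 30.2%, 29.1% and 24.8% of 484 miRNAs fell at D7, D14 and D28.

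The median log2 fold change of all 484 miRNAs in CMs lay between 0.20 and 0.44 with TMM factors and between 1.42 and 2.99 with library size only. Relative to that median, miR-7a-5p stood at -1.58 and -1.59 on the respective scales at D7, at -1.84 and -1.81 at D14 and at -1.91 and -1.83 at D28. Subtracting the median removes most of a change of scaling by construction, so the likeness of these values is not a test. Of all CM calls against D0, 54.4% to 57.7% were higher with TMM factors and 91.8% to 96.3% with library size only. In ECs, FBs and HCs the medians lay between -0.08 and 0.18 with TMM factors and between -0.10 and 0.59 with library size only, and no call of miR-7a-5p there changed direction.

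miR-7a-1-3p in CMs went up under both scalings. It had 1.71, 0.779, 0.872 and 0.229 CPM at D0, which rest on 18, 11, 14 and 3 counts. At D3 it had 4.16, 4.47, 16.9 and 11.6 CPM and at D7 13.9, 21.9, 20.9 and 24.6 CPM. At D14 it had 18.1, 23.2, 17.7 and 18.5 CPM and at D28 4.28, 9.60, 11.6 and 9.04 CPM. From D7 on, every library lay above all D0 libraries on both scales.

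The rise of miR-7a-1-3p in CMs was 4.56-fold at D7 (log2 2.19 ± 0.44, adjusted p = 1.64e-04) and reached log2 4.51 with library size only. With library size only, however, 388 of 484 miRNAs were called higher at D7. Relative to the median of all miRNAs, miR-7a-1-3p stood at 1.84 on both scales at D7, a likeness that is no test. With TMM factors its rise was log2 1.84 ± 0.44 at D14 (adjusted p = 9.32e-04) and 1.46 ± 0.44 at D28 (adjusted p = 0.0070). At D7, D14 and D28, 38.8%, 38% and 29.5% of all miRNAs rose with TMM factors. At D3 it was 1.38 ± 0.44 (adjusted p = 0.010), against 31.8% of all miRNAs, and this call was lost without CM D3 replicate 3 (adjusted p = 0.083). At D1 it was 0.80 ± 0.44 (adjusted p = 0.175), no member passed where 25% of all miRNAs were called, and it passed without CM D0 replicate 1 (adjusted p = 0.041). No member passed between D7 and D28, where 20.5% of all miRNAs were called, with adjusted p of 0.215 for miR-7a-5p and 0.213 for miR-7a-1-3p.

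Markers of other cells moved in the same libraries. In CMs the FB markers summed to 36.5 to 114 CPM at D0 and to 1029 to 2344 CPM at D7, the EC markers to 4423 to 9789 CPM and 13060 to 22801 CPM, and the HC markers to 14.6 to 75.8 CPM and 161 to 298 CPM. The CM markers summed to 603382 to 709040 CPM and 393510 to 561585 CPM. Marker by marker with TMM factors, 3 of the 4 CM markers were called higher at D7 and 1 lower. Their median log2 fold change was 1.19, and 3.50 with library size only. Of the 2 EC markers 1 was called higher and 1 lower, and all 3 FB markers were called higher. At D7, 3 of the 4 HC markers were called higher, with miR-223-3p at 4.29 to 7.83 CPM, and no marker was at 0 over a whole group. Their part in the change of either arm was not tested.

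**Figure D4:**
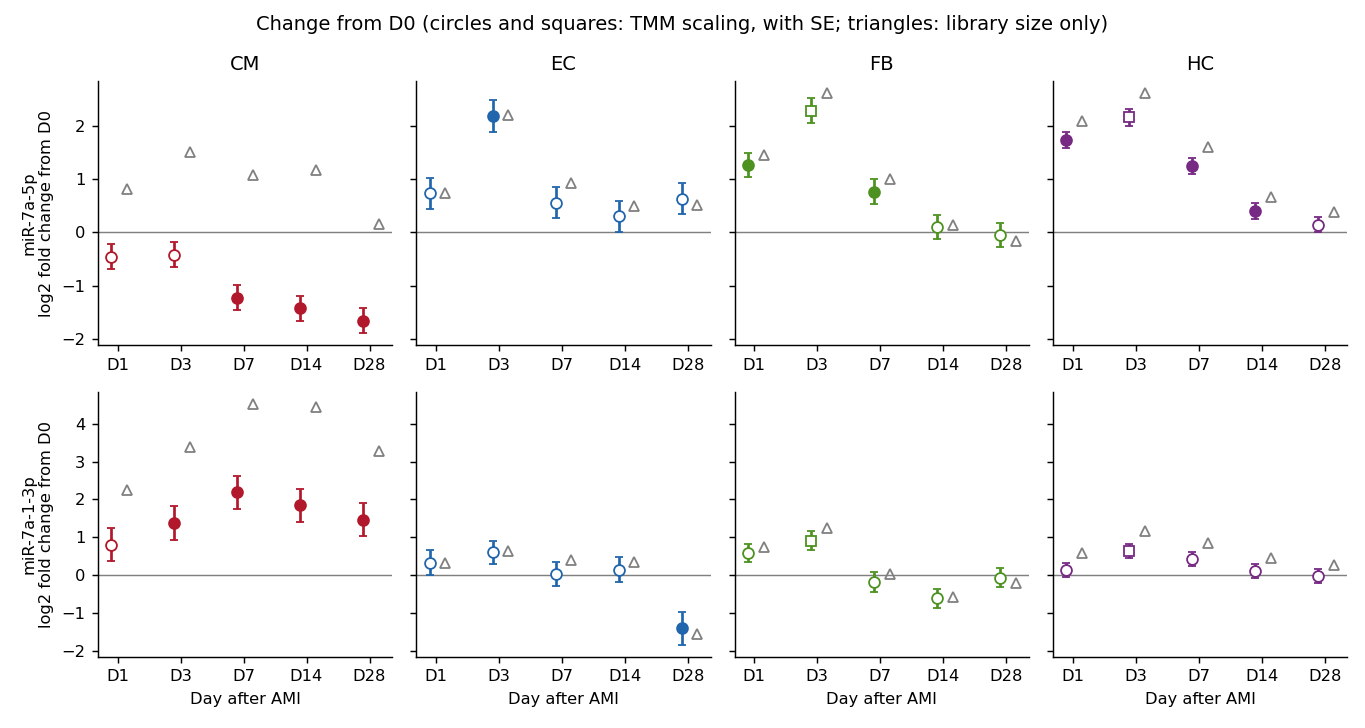
log2 fold change from D0 of miR-7a-5p (upper row) and miR-7a-1-3p (lower row) in CMs, ECs, FBs and HCs at each later day. Circles show the value with TMM factors and its SE, filled where the adjusted p of edgeR's test was under 0.05, squares mark the untested D3 values of FBs and HCs, and grey triangles show the value with library size only. In CMs the circles of miR-7a-5p lie below 0 and the triangles above it, while both lie above 0 for miR-7a-1-3p.

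The balance of the arms is a ratio within a library and does not depend on the scaling. In CMs miR-7a-1-3p amounted to 3.03%, 1.42%, 2.39% and 0.360% of miR-7a-5p at D0. It amounted to 15.2% to 23.8% at D7, 13.9% to 18.7% at D14 and 13.1% to 16.8% at D28. These later days did not overlap D0. No other cell type exceeded 3.86% in any library.

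In HCs the share was lower at D1, D3 and D7 than in the deeper D0 libraries, and in ECs it was lower at D3. miR-7a-1-3p in HCs made up 0.801%, 0.837%, 0% and 0.651% of miR-7a-5p at D0, 0.205% to 0.294% at D1, 0.219% to 0.311% at D3 and 0.402% to 0.481% at D7. The 0% is that of the shallow D0 replicate 3, and without it D1, D3 and D7 lay below all D0 libraries. In ECs the share was 1.95% to 2.80% at D0 and 0.495% to 1.15% at D3, with no overlap, while D1 (1.44% to 2.20%) and D7 (1.15% to 3.86%) overlapped D0. In FBs it was 0.414% to 0.875% at D0, 0.175% to 0.366% at D3 and 0.261% to 0.497% at D7.

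**Figure D5:**
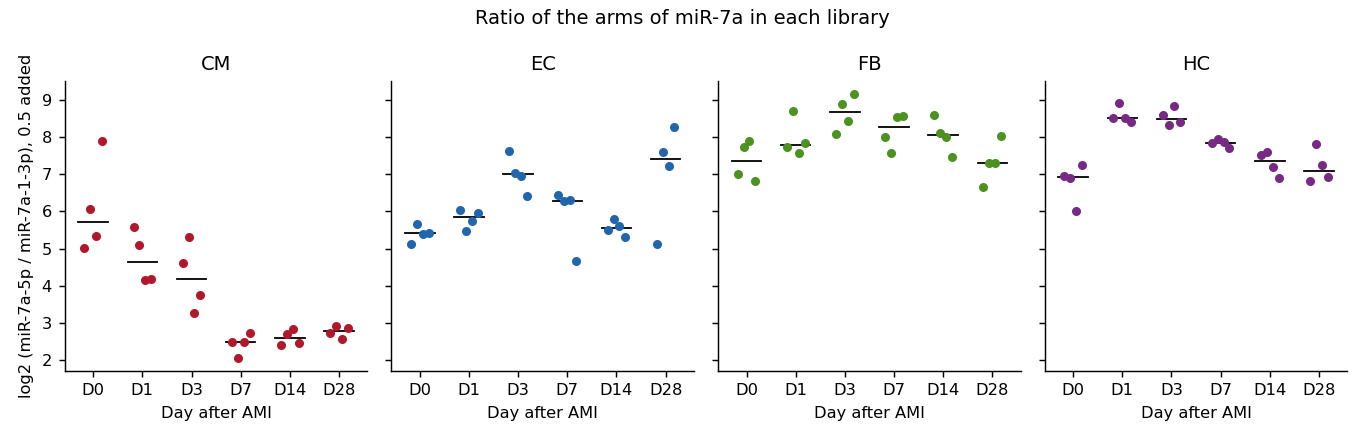
log2 ratio of the counts of miR-7a-5p to miR-7a-1-3p, with 0.5 added to each count, by day after AMI in CMs, ECs, FBs and HCs, 1 point per library, with a line at the median of 4. In CMs the mean is 6.08 at D0 and 2.44 at D7 with no overlap, and in HCs it goes from 6.79 at D0 to 8.59 at D1.

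Tests of the arm ratio against D0 were added after its values had been seen, with two-sided exact permutation tests and adjustment over 18 comparisons that leave out D3 of FBs and HCs. In CMs the log2 ratio of miR-7a-5p to miR-7a-1-3p was 6.08 ± 1.29 at D0 and 2.44 ± 0.27 at D7 (SD, n = 4 each), a difference of -3.64 (exact p = 0.0286, adjusted p = 0.0857). The differences at D14 and D28 were -3.48 and -3.31 with the same p values. In HCs the differences were 1.81 at D1 and 1.05 at D7, and in ECs it was 1.62 at D3, again with exact p = 0.0286 and adjusted p = 0.0857. Without HC D0 replicate 3 the differences in HCs were 1.55 and 0.80, each with exact p = 0.0571, the smallest for 4 against 3. These 6 comparisons had groups that did not overlap and reached the smallest p that 4 libraries against 4 allow, and none of the 18 passed after adjustment.

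At D0 the arm ratio was set side by side between cell types. The mean log2 ratio was 7.37 ± 0.53 in FBs, 6.79 ± 0.53 in HCs, 6.08 ± 1.29 in CMs and 5.40 ± 0.22 in ECs (SD, n = 4 each). ECs did not overlap FBs or HCs, with differences of -1.97 and -1.38 (exact p = 0.0286 and adjusted p = 0.0686 for both, over 12 comparisons). The other 4 pairs overlapped. For miR-7a-1-3p itself at D0, edgeR's test called ECs higher than FBs, with a log2 difference of 1.20 ± 0.31 (adjusted p = 6.38e-04), and FBs lower than HCs, with a log2 difference of -1.56 ± 0.31 (adjusted p = 6.85e-06). CMs were higher than FBs by 1.04 ± 0.35 log2 units (adjusted p = 0.0064), where 26.4% of all miRNAs were higher. This call was lost without CM D0 replicate 1 (adjusted p = 0.134) and turned to -1.85 with library size only, while relative to the median of all miRNAs it was 1.59 and 1.29 on the respective scales.

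The change from D0 to D7 was compared between cell types directly, over all 96 libraries. For miR-7a-5p it was lower in CMs than in ECs, FBs and HCs, with log2 differences of -1.51 ± 0.37, -1.78 ± 0.37 and -2.22 ± 0.37 and adjusted p of 4.76e-04, 3.24e-05 and 6.91e-07. With library size only these differences were 0.16, 0.083 and -0.50, none of them called and the first 2 in the other direction. Relative to the median of all miRNAs they were -2.10, -2.52 and -2.97 with TMM factors and -1.67, -2.08 and -2.43 with library size only. For miR-7a-1-3p the change was higher in CMs by 2.57 ± 0.44, 2.69 ± 0.45 and 2.18 ± 0.43 log2 units, with adjusted p of 1.74e-06, 3.34e-07 and 1.96e-05, and it was called with library size only as well. In these pairs 16.3%, 16.6% and 12.8% of 712 miRNAs were called lower in CMs and 24.2%, 27.7% and 28.2% higher with TMM factors. With library size only, 357, 399 and 380 of 712 were called higher. Between ECs and FBs, ECs and HCs, and FBs and HCs no member passed, where 11.8%, 16% and 13.6% of all miRNAs were called. For miR-7a-5p these log2 differences were -0.26 ± 0.37 between ECs and FBs, -0.71 ± 0.37 between ECs and HCs and -0.44 ± 0.37 between FBs and HCs. DESeq2 called the difference between ECs and HCs (adjusted p = 0.016).

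The 2 arms of miR-671, whose 5p arm cleaves Cdr1as, were the other miRNAs of the circuit that were looked at. Both were rare. miR-671-5p had at most 5.27 CPM and 148 counts in any library and miR-671-3p at most 43.7 CPM, on 97 counts, outside HC D0 replicate 3, where 1 count amounts to 54.7 CPM. Cdr1as itself was not analysed here.

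In CMs miR-671-5p had 1, 1, 0 and 0 counts at D0, under the floor of 3 counts, and 12, 20, 25 and 38 counts at D7, or 0.872 to 2.24 CPM, with no overlap. It was called higher at D7 (adjusted p = 8.47e-04) and also at D3, D14 and D28, and no size is given for a change from so few counts. On these days 29.5% to 38.8% of all miRNAs were called higher in CMs. miR-671-3p fell in CMs with TMM factors at all 5 later days, with -3.17 ± 0.45 at D7 (adjusted p = 4.01e-06), where library size only gave -0.84 (adjusted p = 0.057). Of 484 miRNAs, 55, 113, 146, 141 and 120 fell at D1, D3, D7, D14 and D28 with TMM factors. In HCs miR-671-3p fell at D1, with a log2 fold change of -1.13 ± 0.19 (adjusted p = 2.11e-05), and also at D7 and D14. Of 608 miRNAs, 176, 119 and 78 fell on these days. In FBs miR-671-5p fell at D7, with -1.08 ± 0.33 (adjusted p = 0.0099), and at D14, where 119 and 58 of 563 miRNAs fell. In ECs miR-671-3p rose at D28, with 1.62 ± 0.33 (adjusted p = 2.42e-04), where 113 of 421 miRNAs rose. In HCs and FBs, miR-7a-5p rose at D1 and D7 and neither arm of miR-671 was called higher. A link between them was not tested.

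The miRNAs whose level went most like that of miR-7a-5p were looked for among miRNAs whose mean level reached 100 CPM. Over the 24 groups of cell type and day, with the mean log2 CPM of 4 libraries per group, the closest of 169 were miR-532-5p (r = 0.84), miR-501-3p (r = 0.83) and miR-362-5p (r = 0.77). Over the 6 days of HCs the closest of 160 were miR-148b-3p, miR-142a-5p and miR-106b-3p (r = 0.99 each). Over the 6 days of FBs they were miR-20a-5p (r = 0.88), miR-93-5p (r = 0.87) and miR-106a-5p (r = 0.86) of 153. miR-142a-5p is 1 of the 4 HC markers. The points include the D0 and D3 values of FBs and HCs that entered the choice of the family. The named miRNAs were picked for the highest r, in HCs and in FBs over only 6 points. All points share libraries and scaling factors, and the values describe these groups only.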

How the data were processed

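The authors trimmed adaptors, removed reads under 18 nt and ran the nf-core pipeline for small RNA, which aligned the rest to mature sequences and hairpins of miRBase 21. The submitters' processing notes also name Trim Galore, SAMtools, Bowtie2 and mm10, with no role. Aligner settings are not given in the sources used here. The deposited values are raw counts of alignments per mature sequence or hairpin, without normalization. The line for unmatched reads (25.6% to 83.0% of the mature tables) entered neither library sizes nor tests. Hairpin counts exceed the reads behind them 1.17 to 2.40 times, so some reads are counted more than once.

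CPM were computed here on mature counts. Changes were tested with edgeR 4.0.16 (quasi-likelihood, TMM, filterByExpr, R 4.3.3), within each cell type on its 24 libraries and across cell types on all 96, with Benjamini-Hochberg adjustment over all miRNAs tested (484, 421, 563, 608 and 712) and a threshold of 0.05. SEs were taken from the F statistic. Ratios had 0.5 added to each count. Scripts used DESeq2 1.42.0, limma 3.58.1 (needed by edgeR), Python 3.11.15 and scipy 1.17.1. The tests were checked on simulated counts with as many rises as falls, which cannot speak to the shift between scalings in CMs. No 2 libraries held identical counts. Intervals of depth cover counting error only. The named miRNAs were the members, their other arms and hairpins, the arms of miR-671, the cell type markers and the 3 miRNAs most like miR-7a-5p. The members and lists were chosen with earlier results of these data known. The study left out 1 library each of EC D28, FB D0 and HC D0 without naming it in its text, and all 96 were kept here. The labels call the libraries biological replicates and the study's text also calls them technical, so p-values measure the spread between these pools. Equal replicate numbers were not taken to pair libraries, and tests across cell types treated the libraries as independent. Between cell types, where pools came from the same animals, the correlation of deviations from the group means ranged from -0.36 to 0.37. Between days of a cell type, which hold different mice, it ranged from -0.74 to 0.65. Among these, FB D1 against D0 stood out, with every pair between 0.16 and 0.47. There the fit with the replicate block changed no call of the members. The alternatives are listed in the closing section. Only the arm ratios by day were added after the data were seen. Targets and total RNA were not analysed here.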

Additional observations from a re-analysis of the deposited data

Results flagged for a closer look

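A library stood apart from the other 3 of its group in 8 of the 72 groups tested (3 members, 24 groups), by the gap to its nearest neighbour relative to the range of the group. Chance alone marks about 1 in 20 groups. The groups of miR-7b-5p largely repeat those of miR-7a-5p, so the 72 are not independent and no excess over chance is read from the 8. miR-7a-5p was low in CM D28 replicate 1 (28.4 CPM) and HC D0 replicate 2 (1198 CPM), and miR-7b-5p was low in the same libraries (23.4 and 1124 CPM). miR-7b-5p was high in HC D3 replicate 1 (10222 CPM). miR-7a-1-3p was high in CM D14 replicate 2 (23.2 CPM) and EC D28 replicate 1 (5.71 CPM, on 3 counts) and low in HC D3 replicate 3 (19.9 CPM).

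The change from D0 to D7 differed between CMs and each other cell type for miR-7a-5p (and with it miR-7b-5p) and miR-7a-1-3p, by the test of the difference itself, in 9 of 18 such tests. The differences in log2 fold change, CM minus the other cell type, were -1.51, -1.78 and -2.22 for miR-7a-5p against ECs, FBs and HCs. For miR-7b-5p they were -1.48, -1.81 and -2.19, which repeat those of miR-7a-5p since the counts of both could not be told apart. For miR-7a-1-3p they were 2.57, 2.69 and 2.18. Scaled by library size alone, the differences of both 5p members were no longer called, and those of miR-7a-1-3p were. On that scale 357, 399 and 380 of 712 miRNAs were called higher in CMs against ECs, FBs and HCs.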

How the results depend on the processing

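Library size as the only scaling had the most effect. It turned miR-7a-5p in CMs to 0.81, 1.51, 1.08, 1.17 and 0.16 at D1, D3, D7, D14 and D28 (miR-7b-5p to 0.83, 1.51, 1.10, 1.18 and 0.13). At D0 it turned CM minus EC to -2.29 (miR-7b-5p -2.27) and miR-7a-1-3p in CM minus FB to -1.85. It turned the difference in change at D7 to 0.16 for CM against EC (miR-7b-5p 0.21) and 0.083 for CM against FB (miR-7b-5p 0.069), and CM against HC was lost at -0.50. It added calls for miR-7a-5p in ECs at D7 (0.92), HCs at D28 (0.38) and CM minus FB (-3.23), and for miR-7a-1-3p in CMs at D1 (2.24), FBs at D1 (0.75), HCs at D1 (0.58), D7 (0.84) and D28 against D7 (-0.56), CM minus EC (-2.76), CM minus HC (-3.71) and EC minus HC (-0.95). The untested D3 values moved to 2.62 in FBs and to 2.61 in HCs, with 1.17 for miR-7a-1-3p. The share of calls that were higher moved by over 10 percentage points in 29 of 35 comparisons, in ECs, FBs and HCs from between 46.7% and 87.8% to between 50% and 95.1%.

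DESeq2 added calls for miR-7a-5p in ECs at D28 (0.67), CM minus EC at D0 (0.60) and the change at D7 of EC against HC (-0.999), and for miR-7a-1-3p in HCs at D7 (0.65). It moved the D3 values of HCs to 2.46 and 0.96. Fits of 2 days alone added miR-7a-5p in ECs at D1 (0.71) and D7 (0.57) and miR-7a-1-3p in CMs at D28 against D7 (-0.79), and lost miR-7a-1-3p in ECs at D28 against D7 (-1.38). miR-7a-5p in HCs at D14 was lost with no filter (0.32), the replicate block (0.39), 2 days alone (0.39) and without the 3 farthest libraries, HC D0 replicate 3, FB D0 replicate 2 and EC D28 replicate 3 (0.35). No filter also lost EC minus FB at D0 (-0.69). Without those 3 libraries, miR-7a-5p in ECs at D28 (0.75) and miR-7a-1-3p in HCs at D28 against D7 (-0.44) gained a call. The replicate block changed no other call.

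Leaving out 1 library at a time changed a call in the following ranges of log2 values. For miR-7a-5p they were -0.62 to -0.38 in CMs at D3, 0.51 to 0.80 and 0.26 to 0.75 in ECs at D7 and D28, 0.30 to 0.51 in HCs at D14, 0.24 to 0.63 for CM minus EC and -0.78 to -0.63 for EC minus FB at D0. For miR-7a-1-3p they were 0.48 to 1.22 and 0.93 to 1.70 in CMs at D1 and D3, 0.34 to 0.63 in HCs at D7, -0.53 to -0.32 in HCs at D28 against D7, 0.66 to 1.35 for CM minus FB and -0.90 to -0.21 for CM minus HC at D0. The untested value of miR-7a-5p in HCs at D3 ranged from 2.06 to 2.44. Apart from calls that the report gives, miR-7a-1-3p in CM minus HC passed without CM D0 replicate 1 (adjusted p = 0.034) and miR-7a-5p in CM minus EC without CM D0 replicate 3 (adjusted p = 0.041).

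Counts of all miRNAs called moved by over 1.5 times with library size only in CMs at D1 (121 to 298) and HCs at D28 (146 to 238). In ECs at D1 they moved from 0 to 3 with no filter, 3 without the farthest libraries, 5 with DESeq2 and 5 with 2 days alone. Fits of 2 days alone gave 19 in place of 121 in CMs at D1, 163 for 74, 151 for 95 and 124 for 198 in ECs at D3, D7 and D28, 86 for 159 in ECs at D28 against D7, 29 for 45 and 23 for 38 in FBs at D1 and D28, and 241 for 146 in HCs at D28. Leaving out 1 library moved 14 of 336 counts that far. A pseudocount of 5 changed no call of the arm ratios. Low counts limit miR-7a-1-3p, which had 0 to 679 counts per library.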
